A study of Mus musculus with 26 samples.

Results

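The regions described here were CTCF M-ChIP peaks of mouse embryonic stem cells (mESC) in which no CTCF motif had been found. They were the distinct regions of the merged CTCF M-ChIP peak list whose chromosome, start and end stood in no row of the deposited list of motif matches. There were 3500 such unmatched regions among 38881, or 9.002%, and the other 35381 are called matched regions. The deposited list held 43074 matches to the CTCF motif MA0139.1. In M-ChIP, chromatin is immunoprecipitated, tagged on the beads by Tn5 transposase with methylated adaptors and then bisulfite converted, and M-ATAC does the same on open chromatin without an antibody. The libraries used were CTCF M-ChIP (2), its aliquots taken before conversion (CTCF M-ChIP-NC, 2), CTCF ChIP with Nextera transposase (2), M-ATAC (4), M-ATAC-NC (2) and ATAC (2), all from mESC with no treatment named in the labels, and ChIP with a KLF4 antibody in Klf4-/- mESC (2), which lack the target of that antibody. The labels do not say that replicates came from separate cultures, so p-values measure the spread between these samples, which may be technical.

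CTCF is a DNA-binding protein with an array of zinc fingers, of which the central ones read a core sequence. It binds insulators and many promoters, and with cohesin it sets the borders of chromatin loops. Its binding to some sites is sensitive to CpG methylation. A motif scan scores each stretch of sequence against a matrix of fixed length, so a site that lacks a base or lies outside the scanned region has no match.

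The sites below show what the scan matched and what it did not, and are given on the strand of the motif. The first line is the most frequent base at each of the 19 positions of the deposited matches. The second is the same for 895 sites of 18 bp in unmatched regions, described below, in which position 12 of the matrix was left out. Capitals mark positions 10 to 15 of the full matrix, which hold 5 bases in the shortened sites. The next 5 lines give shortened sites of strongly enriched unmatched regions. They are the sites of highest score, 20.3 to 23.1, among the 12 of the 20 regions named below that hold one. The lowest of the 12 scored 10.5. The last lines give the best full-length site of 2 unmatched regions without a shortened site, and the match of the matched region of highest enrichment.

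Most frequent bases of matches: tggccagaaGAGGGCgcca
Most frequent bases of shortened sites: tggccactaGGGGCgctg
Asprv1, chr6:86599374-86599391: cagccactaGGGGCaccg
Nfatc2, chr2:168451191-168451208: tcaccactaGGGGCactg
Lrig1, chr6:94751266-94751283: ctaccacaaGGGGCgctg
Psma2, chr13:14618951-14618968: tggccactgGGGGCactg
Atp2b2, chr6:113911268-113911285: ttgccactgGGGGCgcca
AC122818.2, chr17:87571773-87571791: ggacaaccaGATGATgcca
Slc2a10, chr2:165550598-165550616: ggaaacgtaGAGGGCgcta
Gm15319 (matched), chr8:20424866-20424884: gggccaccaGAGGGCgcga

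Coordinates are those of mm10 (GRCm38), and regions are named by the nearest transcription start of a protein-coding or lncRNA gene. The names are labels of position only.

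Unmatched regions were narrower and less enriched than matched regions. The fold enrichment of the merged list, the ratio of reads at the strongest summit to the local background, had a median of 6.31 in unmatched regions, with quartiles of 5.04 and 8.70. In matched regions the median was 10.01 and the quartiles were 7.29 and 13.3. The median of unmatched regions was lower on 20 of 20 chromosomes (autosomes and X), by 2.32 to 4.42. The highest fold enrichment was 24.6 in unmatched and 49.8 in matched regions. The −log10 q-value had a median of 6.63 in unmatched and 15.7 in matched regions, and its lowest value was 2.00 in both groups. Unmatched regions had a median width of 161.5 bp, against 256 bp, and 2.43% of them held more than 1 summit, against 5.41%. The merged list has no replicates, so these differences were not tested.

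The share of regions without a match fell with width and with enrichment. Regions were split by width into 5 bins of equal number. Of the narrowest bin (up to 168 bp) 23.8% were unmatched, and of the widest (328 to 1105 bp) 2.78%. In the same kind of bins by fold enrichment, 23.9% were unmatched in the lowest and 2.53% in the highest, or 197 regions. In each of the 5 bins of width the median fold enrichment was lower in unmatched regions, for example 5.31 against 6.48 in the narrowest and 11.4 against 13.2 in the widest. By chromosome, between 6.95% and 11.7% of regions were unmatched on the autosomes and X.

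**Figure D1:**
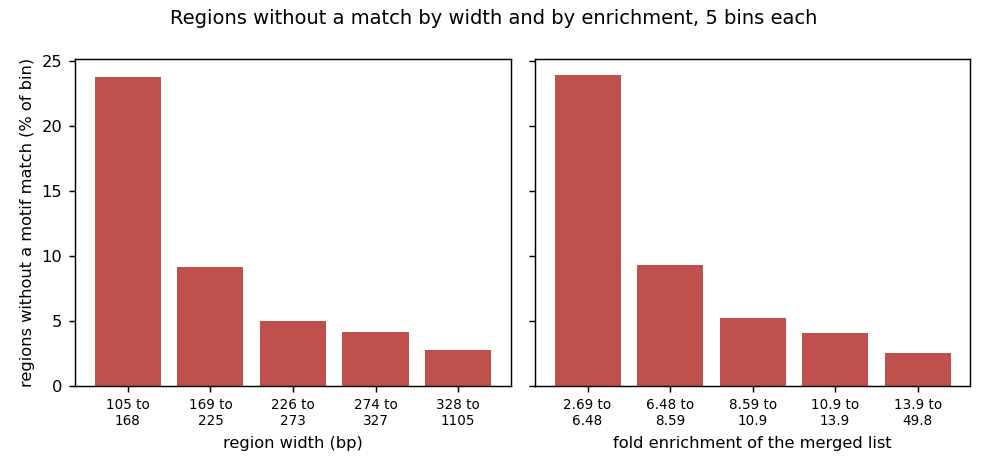
Share of regions without a motif match (y axis, % of the regions of each bin) in 5 bins of equal region number by region width in bp (left) and by fold enrichment of the merged list (right). The bars fall from 23.8% to 2.78% with width and from 23.9% to 2.53% with enrichment.

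Unmatched regions were found less often again in single CTCF libraries. Of the 3500, CTCF ChIP replicate 1 held 66.2% (95% Wilson interval 64.6 to 67.8%) and replicate 2 held 82.3% (80.99 to 83.5%). The same libraries held 92.4% and 98.1% of matched regions. CTCF ChIP supplied no reads to the merged list and, unlike M-ChIP-NC, was not made from aliquots of the M-ChIP material. The difference had a mean of -20.98 percentage points (SD 7.30, n = 2 libraries), and both libraries went the same way (exact sign-flip permutation test, two-sided, p = 0.5, the smallest p that 2 libraries allow). Among regions present in both M-ChIP replicates the difference shrank to -1.92 percentage points, and within bins of fold enrichment it was -7.13.

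CTCF M-ChIP replicates 1 and 2, whose reads made the merged list, held 56.9% and 44.7% of unmatched regions and 84.9% and 73.7% of matched regions. In the unconverted M-ChIP-NC replicates 1 and 2 the shares were 26.4% and 39.3%, against 57.4% and 76.1%. In each of these 6 libraries the unmatched share was the lower. The libraries differed in the number of peak regions they list, from 22261 in M-ChIP-NC replicate 1 to 49633 in CTCF ChIP replicate 2. Read depth is not held by peak lists and its part in these shares was not tested.

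**Figure D2:**
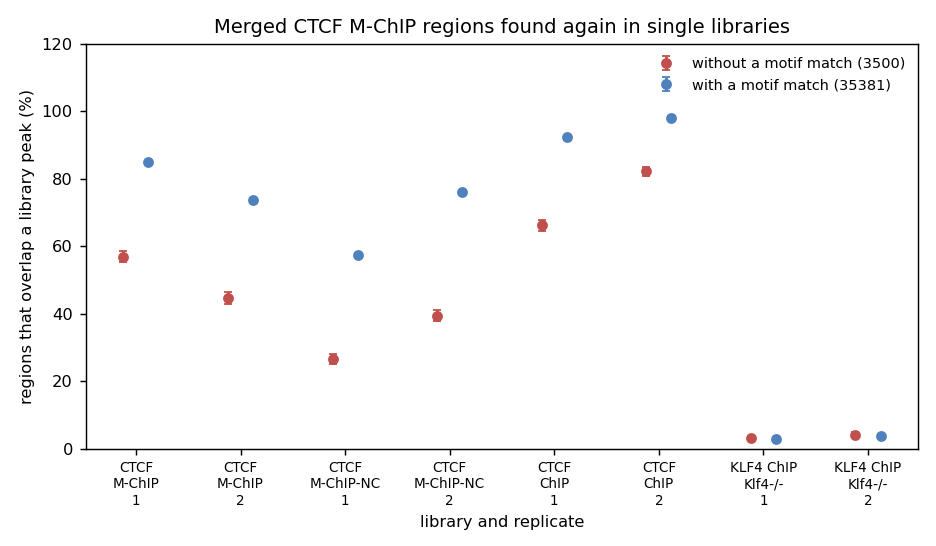
Share of merged CTCF M-ChIP regions that overlap a peak of each library by at least 1 bp (y axis, %), by library and replicate (x axis), for 3500 regions without and 35381 with a motif match. Points are shares and bars 95% Wilson intervals, which cover counting error only. Regions without a match sit lower in all 6 CTCF libraries, and both groups sit between 2.91% and 4.09% in the KLF4 antibody lists from Klf4-/- cells.

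Some of the unmatched regions were found throughout. All 4 lists of CTCF M-ChIP and CTCF ChIP held 888 unmatched regions (25.4%), against 65.3% of matched regions. None of the 4 held 198 (5.66%), against 0.726% of matched regions. With M-ChIP-NC added, 540 unmatched regions (15.4%) stood in all 6 lists. Neither CTCF ChIP list held 586 unmatched regions (16.7%), against 1.62% of matched regions.

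The fold enrichment within single libraries was lower too. At the peaks that overlapped unmatched regions, its median was 6.59 and 5.78 in M-ChIP replicates 1 and 2, against 8.66 and 7.36 at matched regions. In CTCF ChIP replicates 1 and 2 it was 8.26 and 10.2, against 11.04 and 14.1. The mean difference was -2.57 (SD 0.979, n = 4 libraries), with all 4 libraries below 0 (exact sign-flip permutation test, two-sided, p = 0.125, the smallest p that 4 libraries allow). In M-ChIP-NC the medians were 6.69 and 6.75, against 7.40 and 8.17. Within bins of width the difference was -0.797, and among regions in both M-ChIP replicates it was -0.962.

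The gap between matched and unmatched shares was 28.1 and 29.1 percentage points in M-ChIP replicates 1 and 2. In CTCF ChIP it was 26.1 and 15.8. The mean gap of CTCF ChIP was lower by 7.59 percentage points (exact permutation test, two-sided, p = 0.3333, the smallest p that 2 against 2 allow). When a peak had to cover 50% of the region and the region 50% of the peak, the gap was instead larger in CTCF ChIP, by 5.77 percentage points. In the unconverted M-ChIP-NC, which has the adaptors of M-ChIP, the gap at 1 bp of overlap was 31.0 and 36.8 percentage points. M-ChIP and CTCF ChIP differ in adaptors, in conversion and in their part in the merged list, which cannot be told apart here.

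The KLF4 antibody lists of Klf4-/- cells were used as a control, since the antibody has no target there. They held 3.11% and 4.09% of unmatched regions and 2.91% and 3.74% of matched regions. The difference was 0.275 percentage points (SD 0.101, n = 2 libraries; exact sign-flip permutation test, p = 0.5, the smallest that 2 libraries allow), and with 50% reciprocal overlap it was -0.945. The Klf4-/- lists differ from the CTCF lists in cells, antibody and peak caller, and hold 9165 and 14841 regions. Their shares are thus not on the scale of those of the CTCF libraries, and they do not measure unspecific pull-down by the CTCF antibody.

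The best score of the CTCF matrix inside each region ordered the unmatched regions. The lowest score of a deposited match was 7.77, and the highest score inside an unmatched region was 7.75. The 461 unmatched regions within 1 unit below this limit had a median fold enrichment of 7.74 and were held by 84.6% and 95.4% in CTCF ChIP replicates 1 and 2. The 588 matched regions within 1 unit above it had a median of 7.36, and 80.1% and 92.9% were held. These values showed no step at the limit. At the other end stood 1112 unmatched regions (31.8%) whose best score was below 0. Their median fold enrichment was 5.24 and their median width 130 bp, and 42.3% and 64.5% of them were held by CTCF ChIP replicates 1 and 2. A narrow region offers fewer positions to the scan, so that score and width are not independent.

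**Figure D3:**
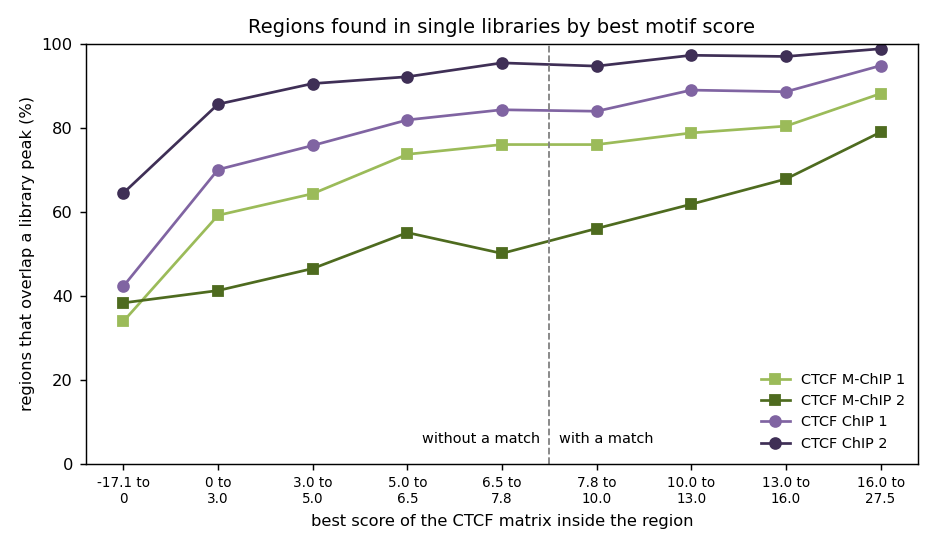
Share of regions that overlap a peak of CTCF M-ChIP replicates 1 and 2 (squares) and CTCF ChIP replicates 1 and 2 (circles) on the y axis (%), by band of the best CTCF matrix score inside the region on the x axis. The dashed line marks the lowest score of a deposited match, 7.77. Shares rise from 42.3% to 84.3% in CTCF ChIP replicate 1 over the 5 bands without a match and stand at 84.0% in the first band with one.

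Some unmatched regions ended close to a site. In the 200 bp centred on the strongest summit, 790 unmatched regions (22.6%) held a full-length site scoring at least 7.77, which by the rule lay wholly or partly outside the region. The windows of the same length 1000 bp to either side held one in 8.31% of cases. In 589 of the 790 (74.6%) the site crossed the edge of the region, and over all 790 a median of 9 of its 19 bases lay outside. These regions had a median width of 127 bp and a median fold enrichment of 5.64, and 54.1% and 83.2% of them were held by CTCF ChIP replicates 1 and 2. Only 39 of them were among the 888 unmatched regions found in all 4 lists.

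Other unmatched regions held a sequence like the CTCF site with 1 base missing. The matrix was scanned once more with each of its 19 positions left out in turn, a scan that was chosen after values had been seen. Position 12 was chosen because leaving it out gave the highest share among unmatched regions held by all 4 lists, 43.2%. In those held by 0 or 1 list it gave 14.9%, where leaving out position 17 gave 29.1%. In matched regions held by all 4 lists, leaving out position 17 gave 94.9% and position 12 gave 15.9%. Leaving out an outer position thus also finds full-length sites, and the shares of different positions are not alike in what they count. With position 12 left out, an 18 bp site scoring at least 10 was present in 994 unmatched regions (28.4%, 95% Wilson interval 26.9 to 29.9%). The flanking windows held such a site in 4.51% and 4.74% of cases. Among matched regions 15.2% held one, in most cases over the full-length match itself, and 3.44% held one that overlapped no deposited match. Unmatched regions cannot hold a full-length match by the rule, so the 28.4% and the 15.2% are not alike in what they leave out.

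The shortened site was the more frequent the more lists held the region. It stood in 10.6% of the 198 unmatched regions held by none of the 4 CTCF lists, in 31.8% of the 1019 held by 3 and in 43.2% of the 888 held by all 4. Position 12 was chosen for its share in those 888, so the top of this rise is not independent of the choice. Over the same range of lists the share rose from 9.34% to 15.9% in matched regions. In unmatched regions held by all 4 lists, leaving out position 11 gave 38.96% and position 14 gave 39.8%. Other inner positions also gave high shares, from 24.7% (position 10) to 36.1% (position 8) over positions 6 to 10. Position 13 gave 28.2% and position 15 gave 29.4%, so the scan does not single out 1 missing base. Leaving out position 5, in the conserved CC of the motif, gave 3.15%. A base added before position 14 gave 22.1% in these regions and 11.5% in matched regions held by all 4 lists. Position 14 was singled out after values had been seen, since a base added elsewhere gave a lower share in these regions. The next highest share was 12.4%, before position 15, against 37.9% in matched regions held by all 4 lists. Before position 13 the shares were 8.33% and 10.1%. No share in flanking windows is given for added bases.

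**Figure D4:**
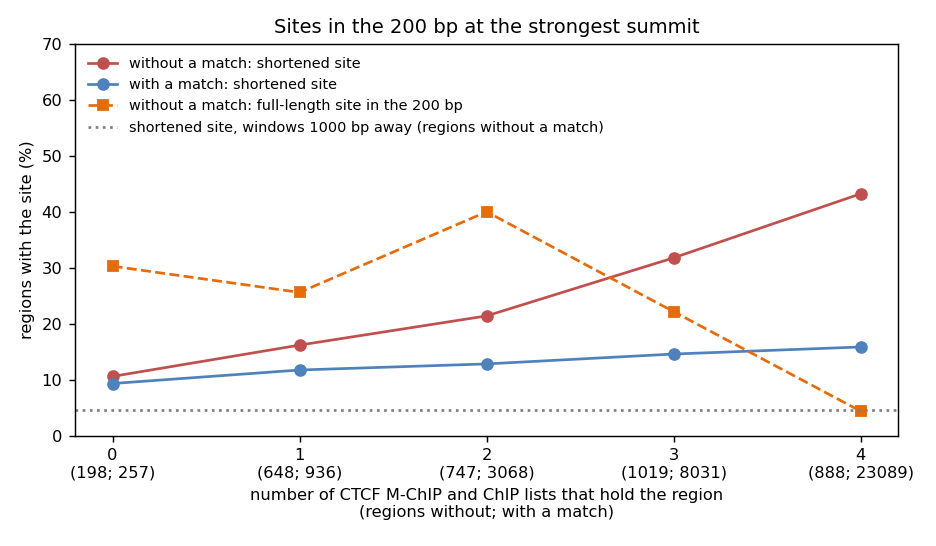
Share of regions (y axis, %) whose 200 bp at the strongest summit hold a shortened CTCF site (circles) or, in regions without a match, a full-length site (squares), by the number of CTCF M-ChIP and ChIP lists that hold the region (x axis, with region numbers). The dotted line is the share of shortened sites in windows 1000 bp away. The shortened site rises from 10.6% to 43.2% in regions without a match and the full-length site falls to 4.39%. The position left out was chosen for that 43.2%.

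Leaving aside the 790 regions with a site at their edge, 895 unmatched regions (25.6%) held a shortened site. Their median fold enrichment was 7.80 and their median width 214 bp, and 82.9% and 94.4% of them were held by CTCF ChIP replicates 1 and 2. For the 1815 regions with neither kind of site these values were 6.15, 168 bp, 63.3% and 75.9%. At peaks of CTCF ChIP replicate 1 the median fold enrichment was 9.64 for regions with a shortened site, 8.26 for those with neither and 11.04 for matched regions. The sites lay near the summit: 61.6% had their centre within 30 bp of it, where 33.3% would fall if sites were spread evenly over the 200 bp window. For the best full-length site inside matched regions the share was 69.9%. Regions vary in width, so an even spread gives another level there, which was not computed. By that measure unmatched regions with a best score below 0 gave 48.7%, so the 61.6% and the 69.9% are not alike.

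The 895 sites were selected by their score, which fixes much of their base composition, so it is given as a description and numbered along the 18 bp. C stood at base 5 in 99.6%, G at base 10 in 98.1% and G at base 12 in 97.2%. The stretch from base 9 to 16 read AGGGGCGC in 11.5% and GGGGGCGC in 11.3% of sites. The word AGGGGCG was taken from these sites after values had been seen, so a higher share in unmatched regions is partly built in. On either strand of the 200 bp window it was present in 5.09% of unmatched regions and 9.80% of those held by all 4 lists. In matched regions the share was 1.34% and in all regions 1.68%. The word TGCAGTA, chosen after values were seen, differed little, with 7.69% of unmatched, 6.58% of matched and 6.68% of all regions. It was present in 11.5% of unmatched regions held by all 4 lists, in 3.31% of those held by 0 or 1 list and in 7.71% of matched regions held by all 4.

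The 20 most enriched unmatched regions held by all 4 lists, 10 within 3 kb of a transcription start and 10 elsewhere, had fold enrichments of 20.02 to 24.6 in the merged list. In M-ChIP replicates 1 and 2 their lowest, median and highest values were 13.5, 17.9 and 21.2, and 8.77, 12.9 and 20.8. In CTCF ChIP replicates 1 and 2 they were 15.8, 20.9 and 26.7, and 18.7, 26.4 and 30.0. Each was also present in both M-ChIP-NC lists. A shortened site was found in 12 of the 20 and neither kind of site in 8. None had a full-length site at its edge.

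Near promoters, the strongest region was chr17:87571624-87572005 over the start of the lincRNA AC122818.2, with a fold enrichment of 23.3. It reached 20.6 and 20.8 in M-ChIP replicates 1 and 2 and 24.1 and 28.6 in CTCF ChIP. The M-ChIP reads made the merged list by which it was chosen, and presence in all 4 lists was a condition. Its best full-length site, printed above, scored 7.41, and its best shortened site 5.71. The next was chr11:94486041-94486469 over an exon and the start of Spata20, with 22.9 in the merged list and a best full-length score of 3.44. Near Dus3l, a dihydrouridine synthase of tRNA, chr17:56763401-56763769 had 22.4 and a shortened site of score 17.6.

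The region chr6:113911158-113911387 in an intron of Atp2b2, a calcium pump of the plasma membrane, had a fold enrichment of 22.3. Its libraries gave 13.97 and 18.2 for M-ChIP and 24.3 and 27.3 for CTCF ChIP. The shortened site printed above scored 20.3 there, while the same place read in full scored 1.28. The region at Psma2, a subunit of the 20S proteasome, lay in an intron 2001 bp from its start at chr13:14618773-14619106 and had 21.4. M-ChIP replicates 1 and 2 gave 20.8 and 9.13 at Psma2, which differ by more than those of CTCF ChIP, and CTCF ChIP gave 18.8 and 23.3. The other promoter regions were near Dip2a (22.2), Wdr75 (21.1), Specc1 (21.03), Prkag2 (20.3), which encodes a regulatory subunit of AMP-activated kinase, and Ephb2 (20.02), a receptor tyrosine kinase for ephrins. Shortened sites were found at Prkag2 and Ephb2.

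Away from promoters, the strongest region was intergenic at chr1:152511349-152511600, 41444 bp from Rgl1, with 24.6 in the merged list. It gave 20.5 and 19.6 in M-ChIP and 23.5 and 29.0 in CTCF ChIP, and its shortened site scored 10.5. The intergenic region chr6:86599159-86599622, nearest to Asprv1, had the highest shortened score of the 20, 23.1. There the fold enrichment was 22.5, with 19.6 and 16.8 in M-ChIP and 20.8 and 21.6 in CTCF ChIP. Its best full-length score was 7.70, just under the limit, at the same place. The 200 bp at its summit, chr6:86599307-86599506 on the plus strand, are printed with the shortened site in capitals.

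Asprv1 region: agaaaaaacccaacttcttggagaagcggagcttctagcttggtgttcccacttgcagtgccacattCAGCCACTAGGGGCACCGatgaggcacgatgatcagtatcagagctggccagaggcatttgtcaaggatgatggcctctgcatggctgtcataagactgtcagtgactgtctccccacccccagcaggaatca

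The region nearest to Slc2a10, chr2:165550485-165550774, had neither kind of site and a fold enrichment of 21.3. Its libraries gave 15.6 and 14.4 for M-ChIP and 15.8 and 22.5 for CTCF ChIP. The window chr2:165550505-165550704 on the plus strand begins with a GA repeat, and the capitals mark the best full-length site, which scored 5.07 and is read on the minus strand.

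Slc2a10 region: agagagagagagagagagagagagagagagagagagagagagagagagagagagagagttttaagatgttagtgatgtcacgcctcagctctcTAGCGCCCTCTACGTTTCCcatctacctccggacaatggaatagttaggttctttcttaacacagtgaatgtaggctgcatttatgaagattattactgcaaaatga

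Regions nearest to Gm34533 (24.5), Gm13799 (21.6), 9030622O22Rik (21.2), Nfatc2 (20.97) and Lrig1 (20.5) had a shortened site. That near Mkrn1 (21.5), in an exon of this ubiquitin ligase gene, and that near Stat4 (20.5), a transcription factor of cytokine signalling, had neither. For comparison, the 3 most enriched matched regions, nearest to Gm15319, Gm16025 and Gm35912, had 49.8, 43.5 and 38.7.

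Unmatched regions overlapped open chromatin more often than matched regions. In M-ATAC replicates 1 to 4, a peak overlapped 10.1%, 11.1%, 10.8% and 10.4% of unmatched regions and 7.09%, 7.77%, 7.08% and 6.51% of matched regions. In ATAC replicates 1 and 2 the shares were 10.6% and 12.8%, against 6.96% and 9.56%. Each of the 6 libraries gave a higher share in unmatched regions, although these were narrower. The mean difference was 3.46 percentage points (SD 0.331, n = 6 libraries; exact sign-flip permutation test, two-sided, p = 0.03125, the smallest p that 6 libraries allow). The authors describe M-ATAC of mESC in duplicate, while the labels name 4 replicates. How the 4 relate is not stated, so the 6 libraries may not be independent units. In the M-ATAC-NC replicates, aliquots of M-ATAC material that were left out of the test, the shares were 12.4% and 14.4%, against 8.49% and 9.93%.

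This difference depended on how overlap was counted. With 50% reciprocal overlap it was 0.494 percentage points (exact sign-flip permutation test, p = 0.125). Within bins of width it was 6.49 and within bins of fold enrichment 6.64 percentage points, with p = 0.03125 (exact sign-flip permutation test) in each case. In the bin of highest fold enrichment, the merged M-ATAC list overlapped 45.2% of the 197 unmatched and 31.2% of the 7579 matched regions. Over all regions these shares were 22.9% and 21.9%. Of the regions with a shortened site 32.1% overlapped the merged M-ATAC list, of those with a full-length site at the edge 11.1% and of those with neither 23.5%.

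**Figure D5:**
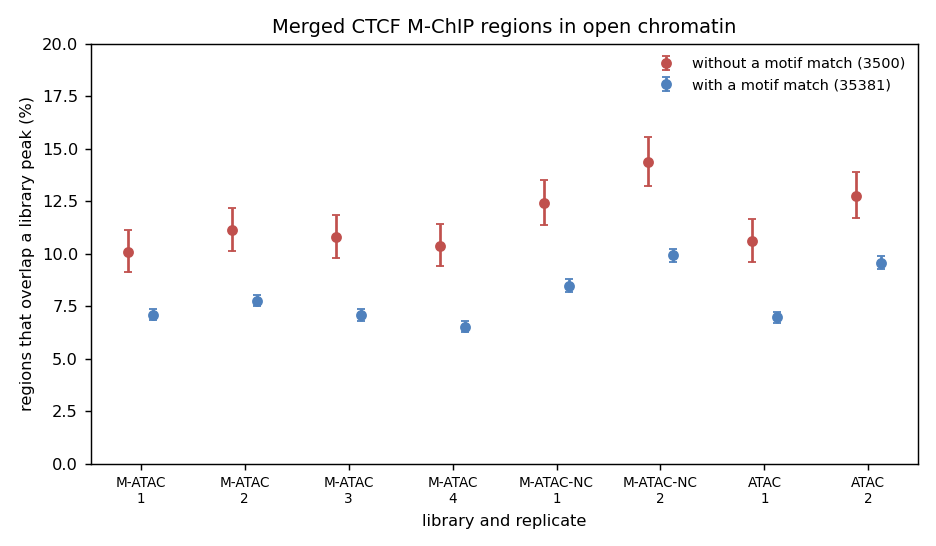
Share of merged CTCF M-ChIP regions that overlap a peak of open chromatin by at least 1 bp (y axis, %), by library and replicate (x axis), for regions without and with a motif match. Points are shares and bars 95% Wilson intervals. Regions without a match sit between 10.1% and 14.4% and matched regions between 6.51% and 9.93%, and the first are higher in each library.

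At the M-ATAC peaks that overlapped them, unmatched regions also had higher fold enrichment. The medians in M-ATAC replicates 1 to 4 were 8.19, 8.59, 7.43 and 7.35, against 6.90, 7.42, 6.68 and 6.70 at matched regions. In ATAC replicates 1 and 2 they were 5.77 and 5.79, against 5.26 and 5.30. The groups thus differed in the same direction in each of these libraries, by 0.489 to 1.297.

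Unmatched regions lay somewhat more often at transcription starts. Within 3 kb of a start were 32.2% of them (95% Wilson interval 30.7 to 33.8%) and 29.3% of matched regions (28.8 to 29.8%). The difference was above 0 on 17 of 20 chromosomes, from -5.18 to 14.6 percentage points. It was wider in proportion at shorter distances, with 19.8% against 14.5% within 1 kb, and 10.97% against 7.36% within 250 bp, where it was above 0 on 19 of 20 chromosomes. A start lay inside the region in 4.91% and 3.77%, a difference above 0 on 11 of 20 chromosomes. In gene bodies beyond promoters lay 35.1% of unmatched and 36.2% of matched regions, and between genes 32.7% and 34.5%. By bins of fold enrichment the promoter share was 31.6% against 29.7% in the lowest, 31.6% against 28.2%, 31.3% against 28.3% and 32.1% against 29.9% in the next 3, and 42.6% against 30.4% in the highest, which held 197 unmatched regions. The merged list gives no test of these shares.

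Base composition was alike at the centre of both groups and wider at the edges. The GC content of the 200 bp at the summit had a median of 47.5% in both, with 5th and 95th percentiles of 33.0% and 63.0% in unmatched and 37.0% and 60.5% in matched regions. Sequence like that of CpG islands (GC content over 50% and CpG observed to expected ratio over 0.6) made up 8.63% of unmatched and 5.25% of matched regions. No CpG at all was found in 15.8% and 13.4%.

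Short motifs of promoter factors differed little in share between unmatched and matched regions for most words, and more were the higher in unmatched regions. On either strand of the 200 bp, GGGCGG (SP and KLF factors) was present in 6.94%, 6.44% and 6.48% of unmatched, matched and all regions. The word CCAAT, read by NFY, was present in 22.5%, 20.97% and 21.1%. ACTACAA, part of the motif of ZNF143, was found in 3.06% (95% Wilson interval 2.54 to 3.68%), 1.96% (1.82 to 2.11%) and 2.06%, and was the more frequent in unmatched regions on 15 of 20 chromosomes. Within 250 bp of a start its shares were 3.39% and 1.69%. CCCTC, which is part of the CTCF motif, was less frequent in unmatched regions, at 47.6%, 65.3% and 63.7%. The rule favours this direction, since unmatched regions are those without a match to that motif. For CCGGAAG (ETS) the shares were 1.37%, 1.45% and 1.44%, for CACGTG (E-box) 4.2%, 3.598% and 3.65%, and for TATAAA 11.9%, 10.9% and 10.97%. TGACGTCA (CRE) gave 0.286%, 0.150% and 0.162%, GCATGCGC (NRF1) 0.657%, 0.529% and 0.540%, and AAGATGGC (YY1) 1.94%, 2.47% and 2.42%. The octamer ATTTGCAT gave 0.8286%, 0.919% and 0.910%, and TGACTCA (AP-1) 3.80%, 3.46% and 3.49%. A word found in a window is not a bound site.

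Methylation could be read at unmatched regions only where they were open, from the cytosines of the merged M-ATAC table. At least 5 reads covered 8764 cytosines in 689 unmatched regions (19.7%), with a median of 12 reads, and 74301 cytosines in 6724 matched regions. Methylation was low in both groups, with a mean of 3.32% per cytosine in unmatched and 3.47% in matched regions. By chromosome, the mean of unmatched regions ranged from 1.06% to 6.56%. Below 20% methylation were 94.0% and 93.4% of cytosines. Above 80% were 26 cytosines in 17 unmatched regions, or 0.297%, against 0.117% in matched regions.

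The unmatched region with most cytosines above 80% was chr4:118548039-118548298, 3995 bp from Tmem125. It held 4 such cytosines of 9. Summed over the 9, 56 of 72 read counts (77.8%) were methylated, where a read counts once at each cytosine it covers. It was held by 1 of the 4 CTCF lists, with a fold enrichment of 6.24. Next came chr4:64017110-64017269, 3456 bp from Tnc, with 48 of 71 such counts methylated over 12 cytosines (67.6%) and 2 of the 4 lists. Both were chosen after their values were seen.

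Genes with an unmatched region within 3 kb of a start were mostly expressed. Of protein-coding genes, 961 of 21951 (4.38%) had one, and 6428 (29.3%) had a matched region. Those with only an unmatched region had a median of 7.89 TPM in the authors' merged RNA-seq table (628 genes), of which 72.9% reached 1 TPM, against 9.03 TPM and 73.6% for those with only a matched region (6049 genes). With both kinds the median was 13.8 TPM (322 genes) and with neither 0.82 TPM (14608 genes). The RNA-seq table merges replicates and was not tested.

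Of the clustered protocadherins, whose alternative promoters are known for CTCF binding and give neurons their surface identity, 20 of 57 genes (35.1%) had an unmatched region and 33 (57.9%) a matched one. For all protein-coding genes the shares were 4.38% and 29.3%. The 20 genes, 14 of the gamma, 4 of the beta and 2 of the alpha cluster, shared 19 unmatched regions. All 4 CTCF lists held 13 of the 19, and 3 lists held 5. In 12 of the 19 a transcription start lay inside the region, and 7 held a shortened site. Their fold enrichment ranged from 5.23 to 16.5, highest at Pcdhgb6, where CTCF ChIP gave 20.4 and 23.4. These genes were nearly silent in mESC, with a median of 0.28 TPM, and the highest was Pcdhgc3 with 15.3 TPM. Neighbouring promoters of a cluster share their ancestry, so these regions do not count as independent.

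For the lists that follow, the shares of all protein-coding genes are again 4.38% with an unmatched and 29.3% with a matched region. Among 9 genes of DNA methylation, Dnmt3a and Tet1 (22.2%) had an unmatched region and 4 (44.4%) a matched one. Dnmt3a encodes a de novo methyltransferase, and the region chr12:3806320-3806573 lay over a start of it, with a fold enrichment of 10.2 and a shortened site. CTCF ChIP replicates 1 and 2 gave 11.8 and 18.4 there. Tet1 encodes an enzyme that oxidises methylated cytosine, and the region chr10:62881234-62881541, 1220 bp from its start, had 14.6 with 10.8 and 18.01 in CTCF ChIP. Among 13 genes of CTCF and cohesin 2 (15.4%) had an unmatched and 7 (53.8%) a matched region. The unmatched regions were at Ctcf itself (chr8:105676023-105676138, fold enrichment 7.16, in 3 of the 4 lists) and at its germline paralog Ctcfl (4.71, in 2 of the 4). The promoters of Tet1 and Ctcf also held a matched region, while those of Dnmt3a and Ctcfl did not.

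Of 18 pluripotency genes 2 (11.1%) had an unmatched region, Klf5 and Dppa5a, and 7 (38.9%) a matched one. At Klf5 it was chr14:99301554-99301840, 2400 bp from a start, with a fold enrichment of 6.34 and 3 of the 4 lists. At Dppa5a, expressed at 5394 TPM, it stood in 1 of the 4 lists, with 5.70. Among 83 genes of ribosomal proteins 7 (8.43%) had one, and 40 (48.2%) had a matched region. At Rpl37, chr15:5116161-5116433 lay 212 bp from the start with a fold enrichment of 9.84 and a shortened site, and all 4 lists held it. CTCF ChIP replicates 1 and 2 gave 9.01 and 15.3 there. At Rpl6, chr5:121201786-121202006 lay 2475 bp from a start with 12.03, and all 4 lists held it too.

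Of 39 Hox genes, which pattern the body axis, 3 (7.69%) had an unmatched and 13 (33.3%) a matched region. Hoxa3 and Hoxa6 shared chr6:52211585-52211907, with a fold enrichment of 14.8 and 12.99 and 17.5 in CTCF ChIP. Hoxc5 had one with 7.63 and a full-length site at its edge, and its promoter also held a matched region. Of 15 imprinted genes 6 (40%) had a matched region and 1 (6.67%), Peg10, an unmatched one, over its start at chr6:4747032-4747392, with 9.80 and a shortened site. Of 67 histone genes 10 (14.9%) had a matched region and 1 (1.49%), Hist1h3e, an unmatched one, with 7.197. Of 397 genes named Zfp, 27 (6.80%) had an unmatched and 86 (21.7%) a matched region. The unmatched ones had fold enrichments of 4.02 to 19.2, the highest at Zfp516, and 6 of the 27 were held by all 4 lists.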

How the data were processed

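The authors trimmed reads with Trim Galore 0.4.4, aligned them to mm10 with Bowtie2 or, for converted libraries, Bismark 0.18.1, and called peaks with MACS2 per library and on merged replicates. Each row of the deposited MACS2 lists is 1 summit, with its score, its fold enrichment over background, and its p and q on the −log10 scale. The deposited Klf4-/- lists, called with PeaKDEck, give a p-value per peak, and only positions were used. The score and the p-value of each motif match are those of FIMO as deposited. The authors' M-ATAC methylation table gives a count of methylated and of unmethylated reads and a percent per cytosine of merged replicates. The deposited expression table gives TPM of merged replicates. The aligner of the unconverted controls is not given in the sources used here.

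Regions were counted once whatever their summits, with the highest fold enrichment. Overlap was at least 1 bp. Replicate lists of CTCF and open chromatin libraries shared at most 56 identical regions, and those of Klf4-/- cells 504. Promoters were within 3 kb of a GENCODE M21 start. The CTCF matrix was recovered by least squares from the deposited matches and scores, whose sequences equalled the reference (GRCm38). Libraries were the unit of each test, since regions of 1 library share their source. The named genes were the 10 unmatched regions of highest fold enrichment within 3 kb of a start and the 10 elsewhere, held by all 4 CTCF lists and on autosomes other than chromosome 18 or on X, the 3 matched regions of highest fold enrichment by the same rule, and genes of fixed lists with an unmatched region at the promoter. Genes whose symbols begin Rps6k, which are kinases, were removed from the ribosomal list. Some genes of this list are not reported here. The members and lists were chosen with earlier results of these data known. An M21 identifier was found for 47187 of the 47606 genes with TPM. Intervals are 95% Wilson intervals and cover counting error only. Read depth is not held by the peak lists. Overlaps, tests and the scan were checked on simulated data. The 4 lists of Klf4-/- cells with WT or R462A KLF4, whose labels and methods name different assays, and the CTCF motif methylation table, which holds only matched sites, were not used here. Alternatives changed the overlap, q-value, motif p, replicates, promoter distance and read minimum. Sequence was read with samtools 1.23.1 and pyfaidx 0.9.0.4, and values were computed in python 3.11.15 with pandas 2.3.3 and numpy 2.4.6 and drawn with matplotlib 3.10.9.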

Additional observations from a re-analysis of the deposited data

How the results depend on the processing

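The number of unmatched regions moved to 8212 when only motif matches with p of at most 1e-05 counted, to 2298 with a −log10 q of at least 5 and to 929 with presence in both M-ChIP replicates, and stayed at 3500 when a match anywhere inside the region counted. Under the same first 3 alternatives, the difference of medians in fold enrichment moved from -3.69 to -2.88, -2.74 and -1.14, that in width from -94.5 bp to -62 bp, -66 bp and -26 bp, and that in GC content from 0 to 0.5, 1 and 1.5 percentage points. The cause was not tested. With 50% reciprocal overlap the accessibility difference was 0.494 in place of 3.46 percentage points and no longer had p under 0.05, the Klf4-/- difference turned to -0.945 and the difference in gap between CTCF ChIP and M-ChIP to 5.77. Methylation differed by -0.147 percentage points at 5 reads and by 0.0630 at 10.

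Leaving out 1 library in turn gave accessibility differences of 3.38 to 3.55 percentage points, each with p = 0.0625 (exact sign-flip permutation test), the smallest that 5 libraries allow. For presence in CTCF ChIP this gave -26.1 to -15.8 percentage points, for fold enrichment -2.90 to -2.15 and for the Klf4-/- lists 0.203 to 0.346. With the replicate number as a block the difference in gap was again -7.59 percentage points (exact sign-flip permutation test, p = 0.5). The labels do not say whether equal numbers pair the libraries. The replicate differences of M-ChIP and CTCF ChIP had a correlation of 0.022 over 23977 regions held by all 4 lists. Noise within libraries can also give a low value, so it does not decide this. The block was fitted for this result alone. The promoter difference stayed between 2.93 and 5.36 percentage points under all its alternatives. Alternatives by bins, without regions with a site at the edge, and for the shortened site were chosen after seeing the data. A shortened site was found in 36.5% and 21.3% of unmatched regions at scores of at least 8 and 12, and in 24.3% and 25.8% with position 11 or 14 left out. With 2 or 4 libraries no test used here can reach p under 0.05, and the peak lists do not hold the read depth behind a missing peak.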
